A study of Mus musculus with 12 samples.

Results

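The genes described here are 10 regulators and targets of the transcription factor Nrf2 and of the thioredoxin system, measured in whole kidney tissue of mice. They were Nfe2l2, Keap1, Bach1, Sqstm1, Nqo1, Srxn1, G6pdx, Txn1, Txnrd1 and Txnip. They were chosen by name and matched to the gene name column of the deposited table, where each of the 10 matched exactly 1 of 22053 gene rows. All 10 were among the 13148 genes tested, which had at least 1 FPKM (fragments per kilobase of transcript, normalised to library size) in at least 4 mice. RNA sequencing covered 12 C57BL/6 mice, with 1 library per mouse and 4 mice in each of 3 groups. CKD (chronic kidney disease) mice ate a diet with 0.2% adenine from 8 to 16 weeks of age and were injected i.p. every week with PBS. CKD+Fe mice ate the same adenine diet and received i.p. iron dextran every week at 0.5 g/kg in place of PBS, so that every iron-treated mouse also had CKD. Control mice ate the diet without adenine over the same 8 weeks and received PBS. The sex of the mice was not given in the sources used here, and none of the 3 groups received iron without adenine.

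Nrf2, the protein of Nfe2l2, is a transcription factor that turns on antioxidant and detoxification genes. Keap1 holds it in the cytosol and marks it for degradation until oxidants or electrophiles modify Keap1, and Bach1 is a heme-regulated repressor that competes with Nrf2 for the same DNA elements. Thioredoxin reduces disulfides in other proteins, thioredoxin reductase recharges it with NADPH, and Txnip binds and inhibits it. Kidney tubule cells have a high oxidative metabolism and use both systems.

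The study compared CKD with control mice and CKD+Fe with CKD mice to describe the antioxidant response of the kidney in CKD and after iron. Differences are given as log2 fold changes of FPKM + 1 with standard errors from limma, fitted to the 12 mice together. A gene counts as called where its p, adjusted by Benjamini-Hochberg over the 13148 genes, was under 0.05. Over all genes tested the median log2 fold change was 0.50 in CKD against control mice, and the changes below are read against this shift. Rescaling each mouse by the median of its ratios to the other mice brought this median to 0.012. Values after this rescaling are given for the members against control mice and for other genes where they moved by more than 1.5 times. Ranges and overlaps between mice are as deposited unless rescaling is named. One transcript, Kap, took on average 11.2% of the summed FPKM of a control mouse and 0.643% of that of a CKD mouse. The summed FPKM also differed, from 607951 to 707843 in control mice and from 503438 to 603556 in CKD mice. The part of either in the shift over all genes was not tested. One mouse per group stood apart, control mouse 042301 with 596 genes, CKD mouse 110310 with 806 and CKD+Fe mouse 042702 with 442 genes that were 2-fold or more from the other mice of the group. The depth in reads is unknown, and the relative depth estimated from low FPKM values ran from 0.664 to 1 across mice. The values are from whole tissue, so fewer cells of a type and less RNA per cell cannot be told apart.

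Short stretches of the promoters of 5 members are shown because they hold the letters through which these factors are known to bind. The 250 bases before each RefSeq start (GRCm38.p6) were searched on both strands for TGACNNNGC, the core of the antioxidant response element bound by Nrf2 with small Maf proteins, and for TGAGTCA, the element of AP-1 and of Bach and Maf factors. They were also searched for CACGNG followed after 5 bases by a second CACGNG, the paired E-box form of the carbohydrate response element bound by MondoA or ChREBP with Mlx. TGACNNNGC was found in 10.2% of 32851 promoters, TGAGTCA in 4.46% and the paired form in 0.0457%. The motifs were chosen after the promoters had been seen, and a match to TGACNNNGC can overlap one to TGAGTCA, whose reverse complement TGACTCA begins with the same 4 letters. Among the 10 members, TGACNNNGC or its reverse complement was present in Nfe2l2, in G6pdx and in 1 of 3 listed promoters of Txnrd1, TGAGTCA was present at 2 places in Srxn1, and the paired E-box form was present in Txnip. Those letters were not in this window of Nqo1, Keap1, Bach1, Sqstm1 or Txn1. The stretches run 5′ to 3′ on the strand of the gene, and capitals mark the match, which is a match of letters and not a measured binding site.
Nfe2l2 (chr2:75704880-75704913, minus strand): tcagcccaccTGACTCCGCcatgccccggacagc
G6pdx (chrX:74428914-74428952, minus strand): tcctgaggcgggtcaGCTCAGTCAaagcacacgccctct
Txnrd1 (chr10:82859099-82859137, plus strand): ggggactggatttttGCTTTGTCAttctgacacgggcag
Srxn1 (chr2:152105407-152105500, plus strand): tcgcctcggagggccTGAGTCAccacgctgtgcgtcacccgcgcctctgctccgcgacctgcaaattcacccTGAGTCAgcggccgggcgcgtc
Txnip (chr3:96557857-96557903, plus strand): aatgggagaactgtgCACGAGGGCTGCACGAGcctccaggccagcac

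In control mice, Txn1 (467 ± 82.9 FPKM, SD, n = 4), Txnrd1 (414 ± 218 FPKM) and Sqstm1 (363 ± 27.1 FPKM) were the highest. The range of Txnrd1 overlapped with those of Txn1 and Sqstm1. Txnip followed at 179.6 ± 114 FPKM, Nqo1 at 64.2 ± 6.85 FPKM, Nfe2l2 at 38.7 ± 3.48 FPKM and Srxn1 at 31.0 ± 3.496 FPKM, each with a range separate from the next. Keap1 (17.7 ± 1.75 FPKM) and G6pdx (17.3 ± 3.65 FPKM) could not be separated, and Bach1 was the lowest at 4.498 ± 1.002 FPKM. In CKD mice the 4 highest were Txnrd1, Txnip, Txn1 and Sqstm1, each overlapping with the next, and Nfe2l2 (84.2 ± 10.8 FPKM) lay above Nqo1 (47.9 ± 12.003 FPKM) in all 4 mice. In CKD+Fe mice the ranges of Nqo1 (114 ± 46.0 FPKM) and Nfe2l2 (92.5 ± 14.1 FPKM) overlapped. FPKM are scaled by length, so these levels can be compared between genes approximately. How reads that Txn1 and Sqstm1 can share with pseudogenes were assigned is not known.

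**Figure D1:**
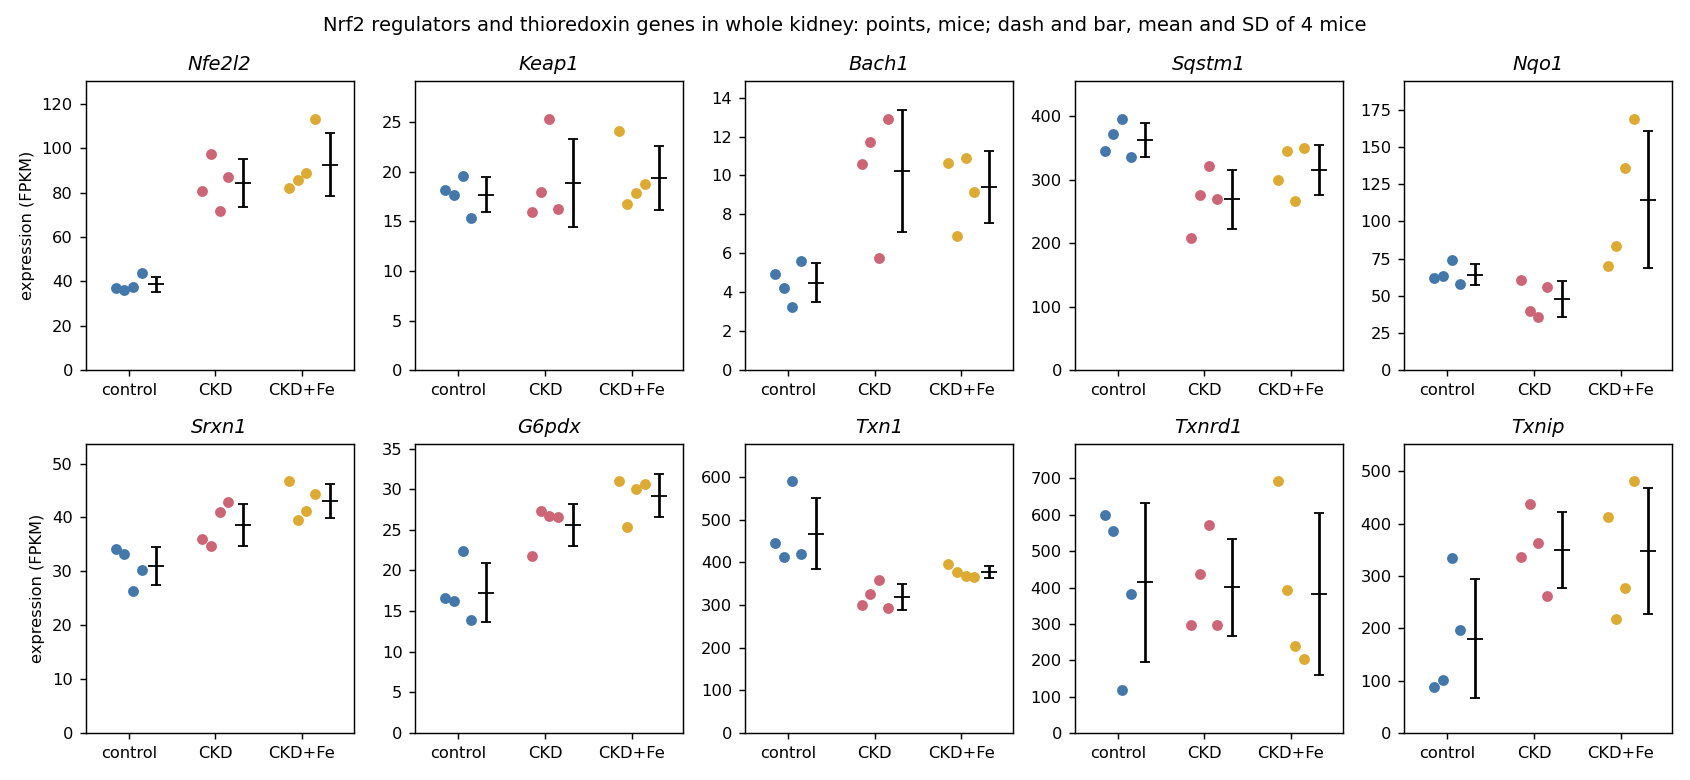
Expression of the 10 genes in FPKM (y axes, each from 0) in the 4 mice of each group, with the mean and SD beside the points. Nfe2l2 lay at 36.1 to 43.8 FPKM in control mice and at 71.9 FPKM or more in every CKD and CKD+Fe mouse, whereas Txnrd1 and Txnip varied widely among control mice.

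In CKD against control mice, Nfe2l2, Bach1, Srxn1, G6pdx and Txnip were higher and Sqstm1 and Txn1 were lower at an adjusted p under 0.05, while Keap1, Nqo1 and Txnrd1 did not pass. The 5 of 10 members higher compare with 54.6% of all genes tested, and the 2 lower with 13.3%. The median log2 fold change of the members was 0.22. As deposited, for 3 members the lowest CKD value exceeded the highest control value (44.6% of all genes), and for 2 the reverse held (10.5%). After rescaling Nfe2l2 stayed separate, while the ranges of Bach1 and of Srxn1 overlapped. Sqstm1 and Txn1 stayed below, and Nqo1 then also lay below, at most 52.4 in CKD and at least 75.6 in control mice. The share of all genes separated after rescaling was not computed. Scaling decided most of the limma calls. After rescaling only Nfe2l2 was higher (28.8% of all genes) and 4 members, Keap1, Sqstm1, Nqo1 and Txn1, were lower (29.3%), and the median of the members was -0.35. With quantile normalization 2 members, Nfe2l2 and Txnip, were higher (23.3% of all genes) and 0 lower (25.6%). Nfe2l2 was the 1 member that was called higher under all 3 scalings.

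**Figure D2:**
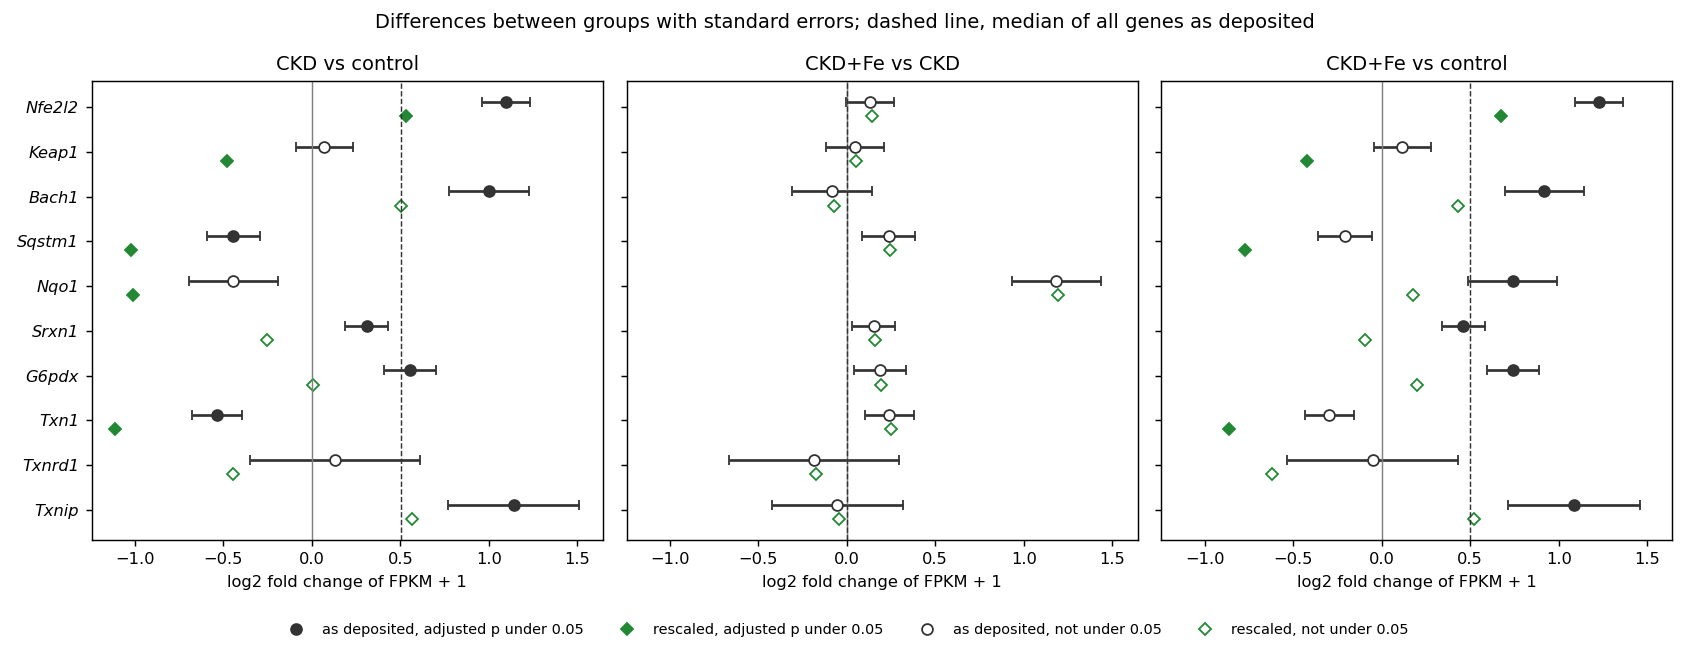
Log2 fold changes of FPKM + 1 (x axis) of the 10 genes in the 3 comparisons, as deposited (circles, bars are standard errors) and after median-of-ratios rescaling (diamonds); filled symbols have an adjusted p under 0.05 and the dashed line is the median of all genes as deposited. Nqo1 stood at 1.18 in CKD+Fe against CKD mice, where all other members lay between -0.18 and 0.24.

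Nfe2l2 (ENSMUSG00000015839, chromosome 2 from 75675513 to 75704641 in GRCm38) encodes Nrf2 itself. Its expression was 37.2, 36.1, 37.7 and 43.8 FPKM in control mice 012811, 012822, 042301 and 042310. It was 80.7, 97.5, 71.9 and 86.8 FPKM in CKD mice 021320, 022301, 110310 and 120102, and 82.3, 85.6, 88.9 and 113 FPKM in CKD+Fe mice 042702, 062910, 111710 and 122320. All CKD and all CKD+Fe mice were above all control mice, and the ranges of CKD and CKD+Fe mice overlapped. The log2 fold change in CKD was 1.10 (standard error 0.14, adjusted p = 1.38e-05), and 0.53 after rescaling (adjusted p = 0.00371). CKD+Fe mice differed from CKD mice by 0.13 (standard error 0.14, adjusted p = 0.974) and from control mice by 1.23 (adjusted p = 8.2e-06), or 0.67 after rescaling (adjusted p = 0.000846). The rise in CKD passed the test in every fit that left out 1 mouse, with values from 1.02 to 1.17.

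Keap1 (ENSMUSG00000003308, chromosome 9 from 21229730 to 21239332) encodes the protein that retains Nrf2 and presents it to an E3 ubiquitin ligase. Its expression was 18.2, 17.6, 19.5 and 15.3 FPKM in control mice, 15.9, 17.9, 25.3 and 16.2 FPKM in CKD mice and 24.0, 16.7, 17.8 and 18.8 FPKM in CKD+Fe mice, in the order of mice given for Nfe2l2. The groups overlapped, and the highest value in each CKD group belonged to the mouse that lay far from its group, 110310 or 042702. The log2 fold change in CKD was 0.07 as deposited (standard error 0.16, adjusted p = 0.711) and turned to -0.48 after rescaling (adjusted p = 0.021) and to -0.34 with quantile normalization (adjusted p = 0.0822). With iron Keap1 differed by 0.05 (standard error 0.16, adjusted p = 0.994). CKD+Fe mice differed from control mice by 0.12 (adjusted p = 0.540), which turned to -0.42 after rescaling (adjusted p = 0.0385) and -0.28 with quantile normalization.

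Bach1 (ENSMUSG00000025612, chromosome 16 from 87698945 to 87733346) encodes the repressor that leaves DNA when it binds heme. Its expression was 4.93, 4.22, 3.25 and 5.60 FPKM in control mice, 10.6, 11.7, 5.78 and 12.9 FPKM in CKD mice and 10.7, 6.88, 10.9 and 9.16 FPKM in CKD+Fe mice. As deposited, the CKD and control mice did not overlap, although CKD mouse 110310 exceeded the highest control mouse by little. After rescaling these groups overlapped. Bach1 rose in CKD, with a log2 fold change of 1.0 (standard error 0.23, adjusted p = 0.00153), which was 0.50 after rescaling (adjusted p = 0.0554) and 0.30 with quantile normalization (adjusted p = 0.237). With iron the difference was -0.08 (standard error 0.23, adjusted p = 0.993), and Bach1 in CKD+Fe mice stood above control mice by 0.92 (adjusted p = 0.00293), or 0.43 after rescaling (adjusted p = 0.0988).

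Sqstm1 (ENSMUSG00000015837, chromosome 11 from 50199366 to 50210827) encodes p62, an autophagy receptor that binds Keap1 and is itself an Nrf2 target. Its expression was 346, 372, 396 and 336 FPKM in control mice, 209, 276, 322 and 270.1 FPKM in CKD mice and 299.7, 345, 267 and 349.9 FPKM in CKD+Fe mice. Every CKD mouse was below every control mouse, and CKD+Fe mice overlapped with both groups. The log2 fold change of Sqstm1 in CKD was -0.44 (standard error 0.15, adjusted p = 0.0186), which was -1.02 after rescaling and -0.07 with quantile normalization (adjusted p = 0.660). Leaving out CKD mouse 021320 gave -0.33 (adjusted p = 0.0672). CKD+Fe and CKD mice differed by 0.24 (standard error 0.15, adjusted p = 0.921). The difference of CKD+Fe from control mice was -0.21 (adjusted p = 0.240), with -0.77 after rescaling (adjusted p = 0.00139) and 0.06 with quantile normalization.

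Nqo1 (ENSMUSG00000003849, chromosome 8 from 107388225 to 107403206) encodes NAD(P)H quinone dehydrogenase 1, an inducible Nrf2 target. Its expression was 62.1, 63.4, 73.8 and 57.7 FPKM in control mice, 60.4, 39.6, 35.8 and 55.8 FPKM in CKD mice and 70.1, 83.3, 135 and 169 FPKM in CKD+Fe mice. The 4 CKD+Fe mice had more Nqo1 than any CKD mouse, and 3 of them had more than any control mouse. The CKD and control groups overlapped in 1 mouse as deposited and did not overlap after rescaling. In CKD against control mice Nqo1 differed by -0.44 (standard error 0.25, adjusted p = 0.131), which became -1.01 after rescaling (adjusted p = 0.00375). Between CKD+Fe and CKD mice Nqo1 differed by 1.18 (standard error 0.25, unadjusted p = 0.000353, adjusted p = 0.254), at percentile 99.9 of all genes tested. The exact two-sided permutation p of this difference was 0.0286, the smallest that 4 mice against 4 allow. The adjusted p with iron was under 0.05 with array quality weights (0.0206) and without the 3 mice far from their group (0.0454), and above it in all other fits, at 0.673 with the compared groups alone. The fits that left out 1 mouse gave log2 fold changes from 0.97 to 1.39 with adjusted p from 0.0548 to 0.988. Against control mice, CKD+Fe mice were higher by 0.74 (standard error 0.25, adjusted p = 0.0188), which was 0.18 after rescaling (adjusted p = 0.568), and without CKD+Fe mouse 111710 or 122320 the adjusted p was 0.0589 or 0.0665.

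Srxn1 (ENSMUSG00000032802, chromosome 2 from 152105516 to 152111376) encodes sulfiredoxin, which restores overoxidized peroxiredoxins. Its expression was 34.2, 33.2, 26.4 and 30.3 FPKM in control mice, 36.0, 34.7, 41.1 and 42.8 FPKM in CKD mice and 46.7, 39.6, 41.3 and 44.4 FPKM in CKD+Fe mice. As deposited, the lowest CKD mouse exceeded the highest control mouse by a narrow gap, and after rescaling the groups overlapped. The log2 fold change in CKD was 0.31 (standard error 0.12, adjusted p = 0.036), below the median of all genes, and after rescaling it was -0.25 (adjusted p = 0.108). Leaving out CKD mouse 110310 or 120102 or control mouse 042301 or 042310 took the adjusted p to between 0.0651 and 0.101. The call was also lost with array quality weights (adjusted p = 0.0549), with the compared groups alone (0.0659), with quantile normalization (0.476) and without the 3 mice far from their group (0.108). With iron the difference was 0.15 (standard error 0.12, adjusted p = 0.958), and CKD+Fe mice exceeded control mice by 0.46 (adjusted p = 0.00452), or -0.09 after rescaling (adjusted p = 0.566).

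G6pdx (ENSMUSG00000031400, chromosome X from 74409483 to 74429194) encodes glucose-6-phosphate dehydrogenase, which makes NADPH in the first step of the pentose phosphate pathway. Its expression was 16.6, 16.2, 22.4 and 13.9 FPKM in control mice, 21.8, 27.3, 26.7 and 26.6 FPKM in CKD mice and 30.9, 25.3, 30.0 and 30.6 FPKM in CKD+Fe mice. The groups overlapped in 1 pair, since control mouse 042301 exceeded CKD mouse 021320, and the other CKD mice were above all control mice. G6pdx rose in CKD by 0.56 (standard error 0.15, adjusted p = 0.00425), close to the median of all genes, and the value after rescaling was 0.0047 (adjusted p = 0.979). In CKD+Fe against control mice the difference was 0.74 (adjusted p = 0.000647), with no overlap as deposited. After rescaling it was 0.20 (adjusted p = 0.240), and these groups overlapped. The difference of CKD+Fe from CKD mice was 0.19 (standard error 0.15, adjusted p = 0.958). The retrogene G6pd2, with which reads could be shared, was at 0 to 0.0798 FPKM.

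Txn1 (ENSMUSG00000028367, chromosome 4 from 57943373 to 57956411) encodes cytosolic thioredoxin. Its expression was 446, 413, 589 and 419.9 FPKM in control mice, 301, 325, 359 and 292 FPKM in CKD mice and 395, 378, 368 and 364 FPKM in CKD+Fe mice. As deposited, the 3 groups did not overlap, with control mice the highest and CKD mice the lowest. The log2 fold change of Txn1 in CKD was -0.54 (standard error 0.14, adjusted p = 0.00402), with -1.11 after rescaling (adjusted p = 2.33e-05) and -0.20 with quantile normalization (adjusted p = 0.108). CKD+Fe mice exceeded CKD mice by 0.24 (standard error 0.14, adjusted p = 0.905). As deposited, Txn1 in the 4 CKD+Fe mice exceeded that in all CKD mice (exact two-sided permutation p = 0.0286). After rescaling these groups overlapped, since CKD mouse 110310 (330.2) exceeded CKD+Fe mice 042702 (329.1), 111710 (322.4) and 122320 (318.8). Against control mice, CKD+Fe mice differed by -0.29 (standard error 0.14, adjusted p = 0.0775), and by -0.86 after rescaling (adjusted p = 0.000243). Reads of Txn1 can be shared with processed pseudogenes, as can those of Sqstm1, and the sources used here do not say how such reads were assigned.

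Txnrd1 (ENSMUSG00000020250, chromosome 10 from 82859206 to 82897724) encodes cytosolic thioredoxin reductase, a selenoprotein. Its expression was 600.4, 555, 119 and 383 FPKM in control mice, 296, 438, 573 and 296 FPKM in CKD mice and 692, 392, 238 and 204 FPKM in CKD+Fe mice. Its coefficient of variation was 52.6% in control mice, 33.2% in CKD mice and 58.3% in the CKD+Fe group, and the groups overlapped throughout. The log2 fold change in CKD was 0.13 (standard error 0.48, adjusted p = 0.815), or -0.44 after rescaling (adjusted p = 0.455), and without control mouse 042301, the lowest, it was -0.39 (adjusted p = 0.374). CKD+Fe differed from CKD mice by -0.18 (standard error 0.48, adjusted p = 0.993). CKD+Fe differed from control mice by -0.05 (adjusted p = 0.933), by -0.62 after rescaling (adjusted p = 0.302), and by -0.91 (adjusted p = 0.00919) without the 3 mice far from their group, which held the lowest control value and the highest value of each CKD group.

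Txnip (ENSMUSG00000038393, chromosome 3 from 96557957 to 96561883) encodes the thioredoxin-interacting protein, an alpha-arrestin that also limits glucose uptake. Its expression was 87.2, 101, 334 and 197 FPKM in control mice, 335, 437, 363 and 261 FPKM in CKD mice and 412, 217, 278 and 481 FPKM in CKD+Fe mice. The mouse lowest for Txnrd1, control mouse 042301, was the highest control mouse for Txnip and overlapped with CKD mice, while the other control mice lay below every CKD mouse. Txnip rose in CKD by 1.14 (standard error 0.37, adjusted p = 0.0147, exact permutation p = 0.0571), with 0.57 after rescaling (adjusted p = 0.193) and 1.45 with quantile normalization (adjusted p = 0.00252). Without control mouse 012811 or 012822 the adjusted p was 0.0538 or 0.0515, and without the 3 mice far from their group the log2 fold change was 1.48 (adjusted p = 0.00241). CKD+Fe and CKD mice differed by -0.05 (standard error 0.37, adjusted p = 0.999), and CKD+Fe mice were above control mice by 1.09 (adjusted p = 0.0196), or 0.52 after rescaling (adjusted p = 0.235), a call that was lost when control mouse 012811 or 012822 or CKD+Fe mouse 042702 or 122320 was left out (adjusted p from 0.0536 to 0.0707).

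Between CKD+Fe and CKD mice, limma called 0 of the 10 members higher and 0 lower, where 0.00761% of all genes (1 gene) were higher and 0% were lower, as deposited and after rescaling. At an unadjusted p under 0.05 there was 1 member, Nqo1, among 790 genes. The median log2 fold change of the members was 0.14, against -0.001 for all genes. As deposited, Nqo1 and Txn1 were the 2 members whose lowest CKD+Fe value exceeded the highest CKD value, a separation seen for 1.35% of all genes. For no member was every CKD+Fe mouse below (1.09% of all genes). The separation of Txn1 was lost after rescaling. In CKD+Fe against control mice, 6 members were higher (54.4% of all genes) and 0 lower (11%), namely Nfe2l2, Bach1, Nqo1, Srxn1, G6pdx and Txnip. This comparison shares its control mice with the comparison of CKD and control mice, so the 2 counts are not independent. As deposited, for 4 members every CKD+Fe mouse was above every control mouse (50.4%), and for Txn1 every one was below (9.85%). Of these 4, Nfe2l2 alone stayed above after rescaling, while Bach1, Srxn1 and G6pdx overlapped with control mice. Keap1, Sqstm1 and Txn1 then lay below all control mice, Keap1 by a narrow gap. After rescaling limma called Nfe2l2 alone higher (27.7%) and 3 members, Keap1, Sqstm1 and Txn1, lower (27.5%).

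Ratios of members within a mouse are the same as deposited and after rescaling, which multiplies all genes of a mouse by 1 factor, but not after quantile normalization. The ratio of Txnip to Txn1, the inhibitor to its target, was 0.195, 0.245, 0.566 and 0.468 in control mice and 1.12, 1.34, 1.01 and 0.894 in CKD mice. It was 1.04, 0.575, 0.753 and 1.32 in CKD+Fe mice, so that all mice with CKD exceeded all control mice. The difference in log2 ratio between CKD and control mice was 1.68 (exact two-sided permutation p = 0.0286, or 0.0857 adjusted over the 12 comparisons of 4 ratios), and that between CKD+Fe and CKD mice was -0.30 (exact p = 0.371). With quantile normalization the first of these was 1.66 (exact permutation p = 0.0286). The smallest exact p that the design allows thus becomes 0.0857 after adjustment for each comparison that reached it.

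The ratio of Keap1 to Nfe2l2, the inhibitor to the factor it holds, was 0.489, 0.488, 0.518 and 0.3495 in control mice and 0.197, 0.184, 0.352 and 0.187 in CKD mice. CKD mouse 110310 alone exceeded the lowest control mouse. The log2 ratio differed by -1.04 between CKD and control mice (exact permutation p = 0.0571) and by -1.13 between CKD+Fe and control mice (exact permutation p = 0.0286, adjusted 0.0857). With quantile normalization these were -1.44 and -1.47, each with an exact permutation p of 0.0286. The ratio of Bach1 to Nfe2l2, repressor to activator, had log2 means of -3.13 ± 0.28 in control mice, -3.09 ± 0.38 in CKD mice and -3.31 ± 0.37 in the CKD+Fe group (SD, n = 4), and the groups overlapped. Its difference between CKD and control mice was 0.036 (exact permutation p = 0.857), which turned to -0.75 with quantile normalization (exact permutation p = 0.0286), and with 1 mouse left out it ran from -0.10 to 0.22.

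The ratio of Srxn1 to Nqo1, both Nrf2 targets, was 0.551, 0.524, 0.357 and 0.526 in control mice, 0.595, 0.876, 1.146 and 0.768 in CKD mice and 0.666, 0.476, 0.305 and 0.263 in CKD+Fe mice. All CKD mice were above all control mice. The log2 ratio in CKD differed from that in control mice by 0.77 (exact permutation p = 0.0286, adjusted 0.0857), or 0.56 with quantile normalization (exact permutation p = 0.114). It differed by -1.04 between CKD+Fe and CKD mice (exact permutation p = 0.0571, adjusted 0.114), where CKD+Fe mouse 042702 overlapped with the CKD mice.

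**Figure D3:**
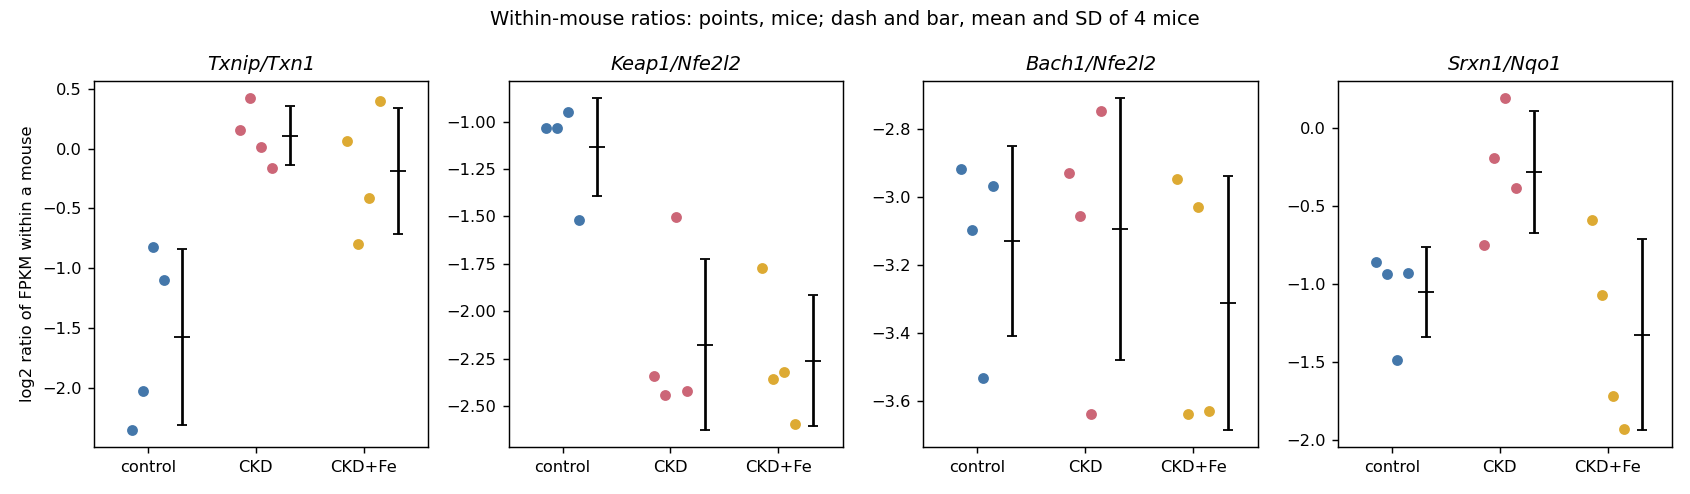
Log2 ratios of FPKM within each mouse (y axes) for 4 pairs of members by group, with the mean and SD of 4 mice beside the points. Txnip/Txn1 had a mean of -1.57 in control mice and 0.11 in CKD mice without overlap, whereas Bach1/Nfe2l2 overlapped in all groups, as deposited.

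Other genes of the same pathways were taken from lists and are given by counts, to be read against 54.6% of all genes higher and 13.3% lower in CKD. Counts after rescaling are to be read against 28.8% of all genes higher and 29.3% lower. Of 11 partners and regulators of Nrf2, 9 were higher and 0 lower in CKD, with a median log2 fold change of 0.60, and after rescaling 3 were higher and 2 lower. Maff, a small Maf protein that dimerizes with Nrf2 or Bach1, rose from 1.69 ± 0.477 to 12.7 ± 2.45 FPKM, by a log2 fold change of 2.35 (standard error 0.19, adjusted p = 5.41e-07). Mafg, another small Maf, rose from 16.1 ± 3.17 to 33.2 ± 7.14 FPKM, by 0.99 (standard error 0.18, adjusted p = 0.000292). Both were also higher after rescaling, Mafg by 0.44 (adjusted p = 0.0412). The value of Nfe2l1 in this list rests on 2 CKD mice, because 2 estimates were marked as failed.

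Of 16 other Nrf2 targets tested, 4 were higher and 7 lower in CKD, with a median of -0.36, and after rescaling 3 were higher and 10 lower. They did not move in 1 direction. Cbr3, a carbonyl reductase, rose from 1.57 ± 0.701 to 10.3 ± 1.51 FPKM (log2 fold change 2.16, standard error 0.23, adjusted p = 4.6e-06). Abcc4, an efflux transporter, rose from 5.499 ± 0.857 to 17.5 ± 4.05 FPKM (1.49, adjusted p = 1.18e-05), or by 0.98 after rescaling (adjusted p = 0.000314). Me1, the cytosolic malic enzyme that makes NADPH, fell from 167 ± 34.7 to 35.2 ± 11.2 FPKM (-2.24, adjusted p = 6.83e-06), and Gclm, the modifier subunit of the enzyme that starts glutathione synthesis, fell from 289 ± 27.0 to 93.8 ± 20.5 FPKM (-1.64, adjusted p = 2.54e-06). With iron 0 of these 16 targets was called in either direction, where 1 of all 13148 genes was higher and 0 were lower. The median log2 fold change of these targets with iron was 0.34, against -0.001 for all genes. The list was chosen with earlier results of these data known. It holds Gstm1, which the study reported as raised by iron, so this median is not independent of the data.

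Of 12 genes of thioredoxins, their mitochondrial partners and peroxiredoxins, 2 were higher and 8 lower in CKD, with a median of -0.62, and after rescaling 0 were higher and 9 lower. Prdx5, a peroxiredoxin of mitochondria, peroxisomes and cytosol, fell from 1848 ± 466 to 588 ± 90.7 FPKM (-1.63, standard error 0.19, adjusted p = 9.87e-06). Msra, a methionine sulfoxide reductase that uses thioredoxin, fell from 343 ± 23.9 to 126 ± 29.7 FPKM (-1.46, adjusted p = 8.88e-06). Of 8 pentose phosphate and NADPH genes, 3 were higher and 1 lower, and after rescaling 0 were higher and 3 lower. Pgd, the enzyme that follows G6pdx in the oxidative branch, rose from 51.4 ± 3.15 to 86.1 ± 11.6 FPKM (0.72, adjusted p = 0.000244), or 0.15 after rescaling (adjusted p = 0.304). H6pd, the counterpart of G6pdx in the endoplasmic reticulum, rose from 62.8 ± 10.8 to 103 ± 18.0 FPKM (0.71, adjusted p = 0.00145), or 0.14 after rescaling (adjusted p = 0.493).

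Among 8 autophagy receptors and LC3 family genes, the group of Sqstm1, 2 were higher and 3 lower in CKD, and after rescaling 1 was higher and 5 lower. Optn, an autophagy receptor like Sqstm1, rose from 4.86 ± 0.776 to 11.2 ± 1.97 FPKM (1.06, adjusted p = 5.4e-05), and Gabarapl1, an LC3 family protein, fell from 585 ± 90.2 to 351 ± 73.9 FPKM (-0.75, adjusted p = 0.00164). Among 7 alpha-arrestins and MondoA/ChREBP genes, the relatives and the regulators of Txnip, 3 were higher and 1 lower, as deposited and after rescaling. Arrdc4, an alpha-arrestin that is also a MondoA target, rose from 4.65 ± 0.988 to 17.4 ± 1.51 FPKM (1.71, standard error 0.16, adjusted p = 1.89e-06). Mlxip, which encodes MondoA, rose from 3.44 ± 0.542 to 12.4 ± 1.06 FPKM (1.60, adjusted p = 4.53e-07), while Mlx, its DNA-binding partner, fell from 43.3 ± 1.76 to 23.9 ± 2.01 FPKM (-0.83, adjusted p = 1.83e-05). The directions of Arrdc4, Mlxip and Mlx, and of Optn and Gabarapl1, were also called after rescaling, where the log2 fold change was 0.56 for Optn, -1.32 for Gabarapl1 and -1.39 for Mlx. In all 6 pathway lists limma called 0 genes between CKD+Fe and CKD mice, where 1 of all 13148 genes was higher and 0 were lower.

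Markers of cell types moved with the same comparison. All 7 macrophage markers were higher in CKD, and their summed level ran from 79.3 to 133 FPKM in control, from 648 to 1385 FPKM in CKD and from 706 to 1413 FPKM in CKD+Fe mice. Of 8 proximal tubule markers 7 were lower, with sums from 5720 to 7367 FPKM in control, from 814 to 1585 FPKM in CKD and from 851 to 2348 FPKM in CKD+Fe mice. All 5 injured tubule and all 4 fibroblast markers were higher in CKD. None of 4 thick limb and distal tubule markers or of 4 papilla and urothelium markers was called, and 2 of 3 collecting duct and 1 of 3 endothelium markers were lower. These counts compare with 54.6% of all genes higher and 13.3% lower. After rescaling (28.8% of all genes higher, 29.3% lower) all 3 collecting duct and all 3 endothelium markers were lower. The other marker lists kept their counts. No marker was at 0 in a group. Between CKD+Fe and CKD mice limma called 0 markers, where 1 of all 13148 genes was higher and 0 were lower. The part of cell composition in the changes of the 10 members was not tested.

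For the 3 members that varied most over the 12 mice (SD of log2 values 0.785 for Txnip, 0.743 for Txnrd1 and 0.629 for Nqo1), the genes with the nearest profiles were found by the root mean square difference of centred log2(FPKM + 1). Txnip was nearest to Arntl (0.29), which encodes the clock factor Bmal1, then to Bok (0.33) and Rasal1 (0.34). Arntl was at 0.734 and 0.840 FPKM in control mice 012811 and 012822, the lowest for Txnip too, and at 5.67 and 4.004 FPKM in control mice 042301 and 042310. In CKD mice Arntl lay between 3.09 and 5.21 FPKM and in CKD+Fe mice between 4.11 and 6.25 FPKM. The Arntl values of control mice 012811 and 012822 lay under 1 FPKM, the level of the filter. The time of day at which kidneys were taken was not given in the sources used here, and a link to these values was not tested.

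Txnrd1 was nearest to Kctd17 (0.39), then to Emc10 and Imp4 (both 0.47), and control mouse 042301 was the lowest control mouse for both Txnrd1 and Kctd17 (12.05 FPKM, against 31.5 to 33.5 FPKM in the other control mice). Nqo1 was nearest to Gsta2 (0.20), a glutathione transferase, with means of 199.4 ± 16.7 FPKM in control mice, 147 ± 28.3 FPKM in CKD mice and 312 ± 69.4 FPKM in the CKD+Fe group. RP23-234F23.1 and Fam13a followed at 0.30 and 0.33. These likenesses are descriptions over 12 mice that share their groups and libraries.

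**Figure D4:**
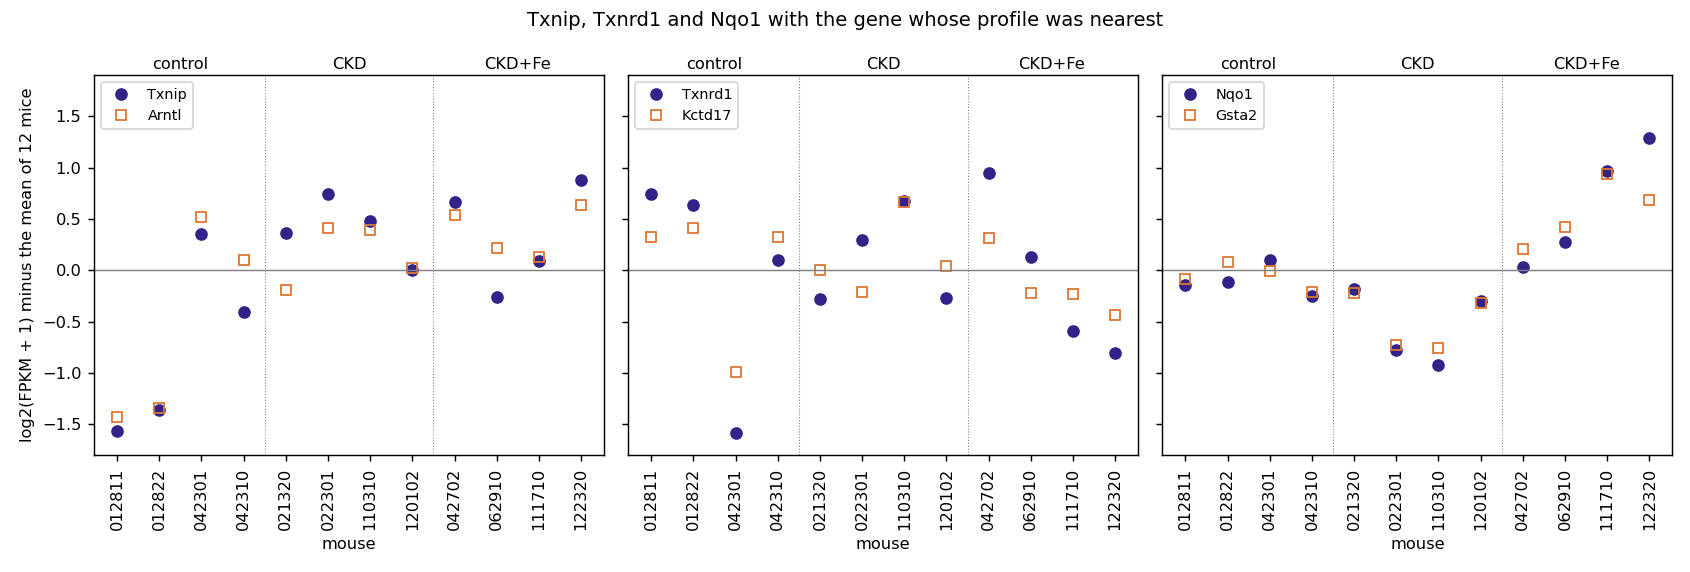
Log2(FPKM + 1) minus the mean of the 12 mice (y axis) in each mouse (x axis, by group) for Txnip, Txnrd1 and Nqo1 (filled circles) and the gene nearest to each (open squares). Txnip and Arntl were both lowest in control mice 012811 and 012822, and Nqo1 and Gsta2 were both highest in CKD+Fe mice 111710 and 122320.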

How the data were processed

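Whole kidney RNA of 12 mice was sequenced by the authors from stranded mRNA libraries. The authors deposited FPKM values, 1 per gene and mouse, and the submitters' processing notes name bcl2fastq 2.19, STAR 2.5.2, Cufflinks 2.1.1 and GRCm38, while the annotation release is not given in the sources used here. FPKM are not counts, so no count test was made. The number of reads behind each value is unknown, and precision comes from the spread between mice alone. The table marks 30 values in 17 genes as failed estimates, which were treated as missing, with 0 among the 10 members.

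Log2(FPKM + 1) was fitted with limma 3.58.1 in R 4.3.3 (all 12 mice in 1 fit, variance trend, two-sided p, Benjamini-Hochberg adjustment, threshold 0.05). The authors tested counts with DESeq2 and name an adjusted cutoff of 0.5, used here as an alternative threshold. Ratios within a mouse were compared by exact permutation over mice. Groups came from the deposited labels, and no batch is named there. Python 3.11.15, pandas 2.3.3, numpy 2.4.6 and matplotlib 3.10.9 were used. On simulated data for CKD against control mice (11921 genes), 75 of 94 changes of 2-fold and 105 of 106 of 4-fold were recovered, with 15 false calls. Only these genes were changed there, in both directions, and all had control levels above that of Bach1. The simulated data held no shift over all genes, whereas the measured median was 0.50, so these counts do not give the recovery in the measured data.

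The members, pathway lists and marker lists were chosen with earlier results of these data known. The genes named are the 10 members, the 3 most alike genes for the 3 most variable members and, per pathway list and direction, up to 2 genes with the largest change in CKD among those called whose groups did not overlap. The motifs were chosen after the promoters had been seen. Promoters are from RefSeq (GRCm38.p6) and all 10 members matched by symbol. Aox1 was not tested and Map1lc3b was not matched. Alternatives were a pseudocount of 0.1, no filter, a filter at a mean of 5 FPKM, rescaling by median ratios, quantile normalization, the compared groups alone, array weights, no variance trend, the threshold of 0.5, the mice far from their group left out, and each mouse left out in turn.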

Additional observations from a re-analysis of the deposited data

Results flagged for a closer look

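G6pdx in CKD mouse 021320 was 21.8 FPKM, against 26.6 to 27.3 FPKM in the other CKD mice, and its gap to the nearest mouse was a larger share of the range of the group than Dixon's 95% critical value for 4 samples. It was the 1 value past that limit among 30 groups of 4 mice (10 genes in 3 groups), where chance gives about 1 in 20.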

How the results depend on the processing

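In CKD against control mice, the 5 members higher became 1 with rescaling by median ratios and 2 with quantile normalization, and the 2 lower became 4 and 0. The 5 higher became 4, without Srxn1, with array weights, with the compared groups alone and without the mice far from their group. With each mouse left out, between 1 and 2 were lower. Between CKD+Fe and CKD mice, 1 member (Nqo1) was higher at a threshold of 0.5, with array quality weights and without the mice far from their group, where 92, 91 and 51 of all genes were higher, against 1 as reported. Between CKD+Fe and control mice, the 6 higher became 1 with rescaling, and the 0 lower became 3 with rescaling, 2 at a threshold of 0.5, 2 with array weights and 1 without the far mice, where 3618, 2388, 1981 and 1632 of all genes were lower, against 1442 as reported. The cause was not tested.

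Some log2 fold changes changed sign. In CKD, Keap1 was -0.064 with array weights, -0.48 with rescaling, -0.34 with quantile normalization and -0.026 without the far mice, Srxn1 was -0.25 with rescaling, and Txnrd1 was -0.63 with array weights, -0.44 with rescaling and -0.58 without the far mice. For iron, Txnip was 0.029 with array weights. Rescaling gave -0.42 for Keap1 and -0.092 for Srxn1 in CKD+Fe against control mice, and quantile normalization gave -0.28 for Keap1, 0.058 for Sqstm1 and 0.12 for Txnrd1. The log2 ratio of Bach1 to Nfe2l2 in CKD was -0.10 with a pseudocount of 1 and -0.75 with quantile normalization, an alternative for the ratios that was added after seeing the data. With each mouse left out, Keap1 ran from -0.074 to 0.14 and Txnrd1 from -0.39 to 0.39 in CKD. Between CKD+Fe and CKD mice, Keap1 ran from -0.058 to 0.19, Bach1 from -0.31 to 0.046, Txnrd1 from -0.53 to 0.059, Txnip from -0.23 to 0.15 and the log2 ratio of Keap1 to Nfe2l2 from -0.25 to 0.14. Txnrd1 in CKD+Fe against control mice ran from -0.57 to 0.21, and the log2 ratio of Bach1 to Nfe2l2 in CKD from -0.10 to 0.22.

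Over all alternative values of the members' fold changes, 587 kept direction and side of the threshold, 30 lost the call, 12 gained one and 31 changed sign. The 587 include fits that could not move a fold change, such as those without a mouse of the group not compared. With rescaling alone, 15 of 30 results kept both, 7 lost the call, 3 gained one and 5 changed sign. No paired analysis was possible because the groups share no mouse numbers. FPKM are relative to the total of each mouse, so total RNA per kidney was not measured, and with 4 mice per group single mice decided the calls named with them above.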
